A study of Homo sapiens with 2 samples.

Results

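The genes described here are the ID family of transcriptional inhibitors, ID1, ID2, ID3 and ID4, together with BMP4, BMPR1A, BMPR2, SMAD1, SMAD5 and SMAD6, which carry bone morphogenetic protein (BMP) signals. They were chosen by gene symbol, after the ratios between both arrays were known, so their ratios are given as a description and were not tested. Of these 10 genes, 9 had at least 1 probe set annotated with that symbol alone, among 19775 genes on the array that did. They accounted for 28 probe sets, of which 21, from 8 genes, passed a filter on dim signals. No probe set was annotated to BMPR1A alone in the table used here. Probe sets shared with another symbol were not searched for it, and its level was not analysed. The single probe set of BMP4 was below the filter.

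The values come from U251, an established line of human glioma cells. RNA was hybridised to the Affymetrix HG-U133 Plus 2.0 array, whose probe sets are groups of short oligonucleotides aimed mostly at the 3' ends of transcripts. One culture was transfected with miR-31, a microRNA written has-miR-31 in the labels, and the other with an unspecified control; both were grown in serum-supplemented DMEM. The kind of construct and the time of harvest are not given in the sources used here. With 1 array per group there is no replicate, no p-value was computed, and whatever else differed between the cultures cannot be separated from the transfected miRNA. In such bulk RNA, fewer cells of a type and less RNA per cell cannot be told apart. The mature miRNA of the MIR31 gene is shown because the labels name miR-31 as what was transfected. RefSeq places it on GRCh38.p14 at chr9:21512158-21512178 on the minus strand, and the capitals mark its seed, bases 2 to 8, with which a miRNA pairs to its targets. The labels do not say which strand of the hairpin was delivered.
hsa-miR-31-5p: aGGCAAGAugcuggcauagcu

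BMPs are secreted ligands that bind paired type I and type II receptors on the cell surface. The type I receptor then phosphorylates SMAD1, SMAD5 and SMAD9, which enter the nucleus with SMAD4 and switch on target genes. ID genes are among the best known of these targets. ID proteins have a helix-loop-helix domain without the DNA-binding stretch next to it, so they pair with helix-loop-helix transcription factors and keep them off DNA. In the brain and in glioma they are known for their part in keeping cells undifferentiated, while BMP signals can push neural stem cells towards astrocytes.

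Intensities are printed as deposited, in arbitrary units on a linear scale. A log2 ratio is log2(intensity + 16) on the miR-31 array minus the same on the control array, so a value below 0 means a lower signal in the miR-31 array. A probe set was compared if the mean of its 2 levels reached that of the median probe set, which corresponds to an intensity of 62.7. The brightest compared probe set stands for its gene. Disagreement between probe sets of the same gene corresponds to an SD of 0.334 for 1 log2 ratio, estimated from 3142 genes with exactly 2 compared probe sets; it leaves out differences between cultures. A gene is called higher or lower where it reached 2-fold.

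All 4 ID genes had a lower signal in the miR-31 array, whereas the receptor and SMAD genes lay close to the control, some slightly above it and some slightly below. Of the 8 genes compared, ID1, ID3 and ID4 (3 genes) were past 2-fold on the lower side, and 0 genes on the higher side. Over all 11787 genes compared, 1.58% were called lower and 3.74% higher. The median log2 ratio was -1.09 over the 4 ID genes, 0.02 over BMPR2, SMAD1, SMAD5 and SMAD6, and 0.03 over all genes. The difference between the ID genes and the other members could not be tested with 1 array per group.

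**Figure D1:**
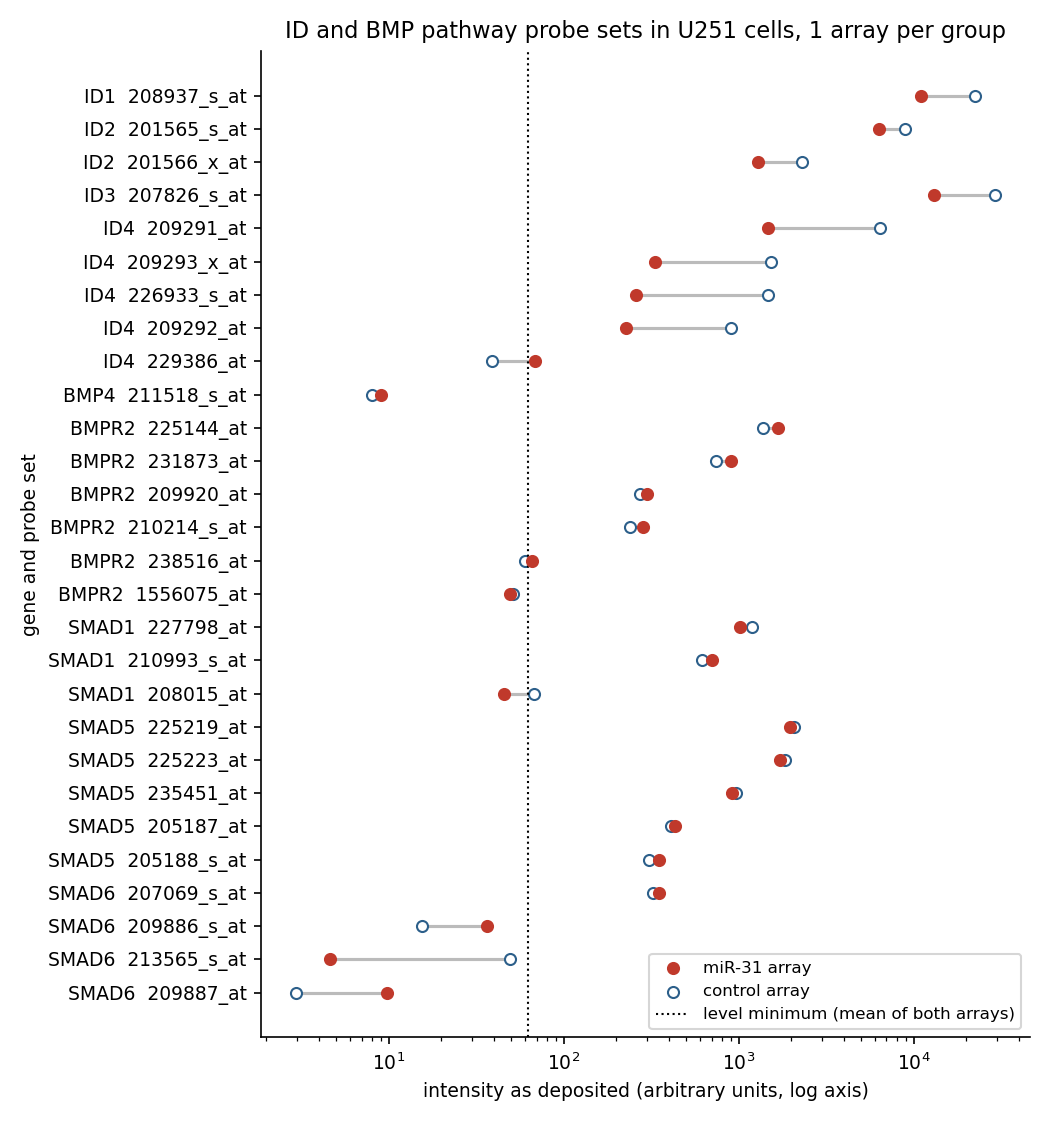
Intensity of all 28 probe sets of the 9 genes on a log axis, with filled points for the miR-31 array, open points for the control array and a dotted line at the level minimum of 62.7. All 8 compared ID probe sets lie further left in the miR-31 array, while the compared BMPR2 and SMAD probe sets have their points close together.

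ID4 was the furthest below the control. This gene, with Entrez identifier 3400, spans bases 19837370 to 19842197 of chromosome 6 (GRCh38.p14), and its protein is known in neural development for affecting when precursor cells leave the cycle and differentiate. Its brightest probe set, 209291_at, had an intensity of 1475 in the miR-31 array and 6449 in the control array, a log2 ratio of -2.12. Probe set 209293_x_at had 334.8 in the miR-31 array and 1527 in the control array (-2.14). In 226933_s_at the miR-31 array had 258.8 and the control array 1479 (-2.44). The 4 compared sets placed the miR-31 signal at between 17.5% and 25.2% of the control, and overlap between their probes was not checked. The upper end came from 209292_at, with 227.7 in the miR-31 array and 902.8 in the control array (-1.91). The fifth set, 229386_at, was below the level filter and pointed the other way, with 68.8 in the miR-31 array and 39.1 in the control array. Among all genes compared, ID4 ranked 13 counting from the lowest ratio.

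ID3 and ID1 were lower by about the same factor as each other. ID3 (Entrez 3399, chromosome 1, bases 23557926 to 23559501) is a BMP-responsive inhibitor of E proteins. Its single probe set, 207826_s_at, had an intensity of 13124 in the miR-31 array and 29137 in the control array, a log2 ratio of -1.15. ID1 (Entrez 3397, chromosome 20, bases 31605289 to 31606510), often used as a readout of BMP signalling, also has 1 probe set. That set, 208937_s_at, had 10963 in the miR-31 array and 22390 in the control array (-1.03). The miR-31 signal was thus 45.0% of the control for ID3 and 49.0% for ID1, and ID1 lay just past the 2-fold line. ID3 ranked 111 and ID1 171 from the lowest of 11787 ratios. Both values rest on 1 probe set, with a name ending in _s_at, which marks probes that match more than 1 transcript. After removal of a level-dependent trend ID1 had -0.97 and was no longer called.

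ID2 was the member of the family that stayed within 2-fold. It lies on chromosome 2 at bases 8682056 to 8684461 (Entrez 3398) and binds E proteins and, as background, also the retinoblastoma protein. Probe set 201565_s_at had 6317 in the miR-31 array and 8933 in the control array, a log2 ratio of -0.50. The dimmer 201566_x_at had 1294 in the miR-31 array and 2308 in the control array (-0.83). Both were below 0, by more than the noise SD of 0.334 and by less than 2-fold. A further probe set, 213931_at, is annotated to both ID2 and its relative ID2B and was not used; it had 425.8 in the miR-31 array and 510.0 in the control array (-0.25). ID2 was called lower, at -1.05, only under one of the scalings tried, which sets the poly-A control RNAs to 0.

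Seen by probe set, 6 of 8 compared ID probe sets were at least 2-fold lower and the remaining 2, both of ID2, were not. Of all 22467 compared probe sets with 1 gene symbol, 1.67% were. All 4 ID genes are among the 2947 brightest genes compared, and of these 1.19% were at least 2-fold lower. There ID4 ranked 2 from the lowest, ID3 25, ID1 33 and ID2 244. The highest intensity of any probe set was 48627 on the miR-31 array and 44755 on the control array, and whether the signals of ID1 and ID3 were near saturation was not tested.

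**Figure D2:**
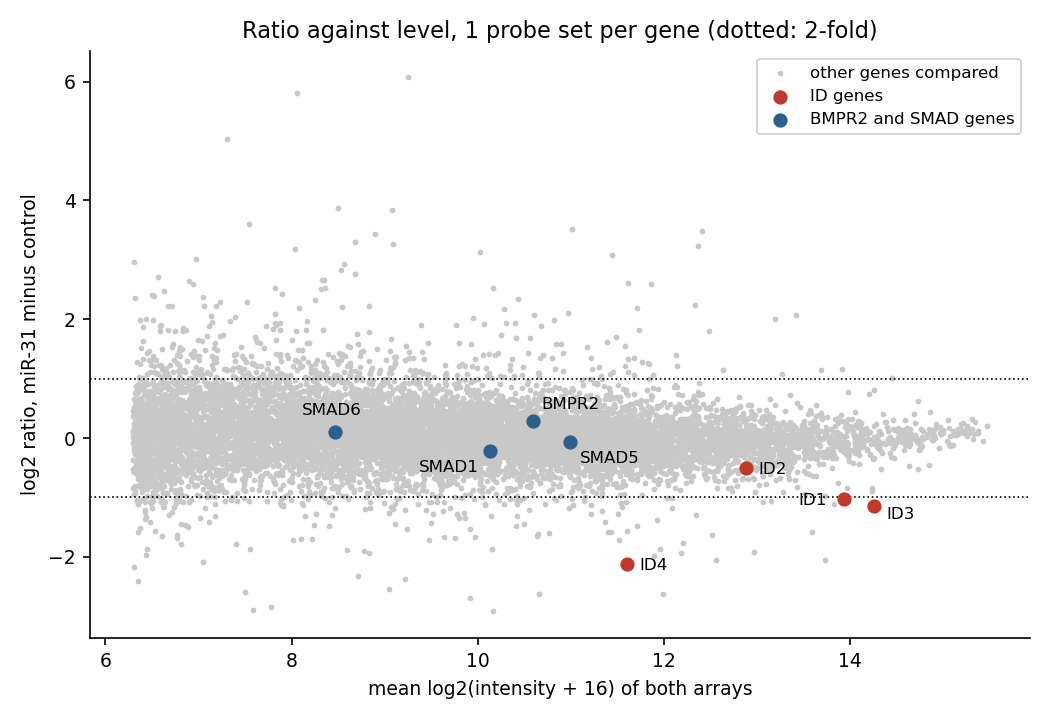
Log2 ratio (miR-31 minus control) against the mean log2(intensity + 16) of both arrays for 11787 genes, 1 probe set each; dotted lines mark 2-fold. ID4 (-2.12), ID3 (-1.15) and ID1 (-1.03) lie below the lower line at the bright end and ID2 (-0.50) above it, while BMPR2 and the SMAD genes lie within the cloud near 0.

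The promoters of the ID genes are printed because 3 of the 4 genes were lower together. Each sequence is the stretch of 250 bases before the RefSeq start on GRCh38.p14, read in the direction of the gene. The capitals mark matches to a short set of motifs on either strand. These were a GC-rich element bound by SMAD1 and SMAD5 (GGCGCC), the box bound by SMAD4 (GTCTG), the core of the cyclic AMP response element (TGACG), the GC box of the SP and EGR families (GGGCGG), the box named for its letters CCAAT, and the TATA box (TATAAA). On the opposite strand a motif appears as its reverse complement.
ID1 (chr20:31605039-31605288, + strand): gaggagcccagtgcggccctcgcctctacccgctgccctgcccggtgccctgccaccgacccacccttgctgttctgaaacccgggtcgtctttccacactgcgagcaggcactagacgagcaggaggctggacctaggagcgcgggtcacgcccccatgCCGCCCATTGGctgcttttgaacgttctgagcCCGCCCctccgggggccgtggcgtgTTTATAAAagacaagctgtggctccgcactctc
ID2 (chr2:8681806-8682055, + strand): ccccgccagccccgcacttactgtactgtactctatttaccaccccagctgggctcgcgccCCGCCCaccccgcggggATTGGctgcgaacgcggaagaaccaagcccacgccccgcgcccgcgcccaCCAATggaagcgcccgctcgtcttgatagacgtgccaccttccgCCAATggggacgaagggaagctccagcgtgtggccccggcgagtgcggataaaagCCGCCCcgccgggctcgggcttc
ID3 (chr1:23559502-23559751, - strand): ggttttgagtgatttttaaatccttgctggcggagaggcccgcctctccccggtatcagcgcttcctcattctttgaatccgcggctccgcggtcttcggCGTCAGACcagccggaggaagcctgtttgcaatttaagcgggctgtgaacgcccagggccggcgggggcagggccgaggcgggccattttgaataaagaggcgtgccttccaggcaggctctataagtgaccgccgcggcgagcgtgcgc
ID4 (chr6:19837120-19837369, + strand): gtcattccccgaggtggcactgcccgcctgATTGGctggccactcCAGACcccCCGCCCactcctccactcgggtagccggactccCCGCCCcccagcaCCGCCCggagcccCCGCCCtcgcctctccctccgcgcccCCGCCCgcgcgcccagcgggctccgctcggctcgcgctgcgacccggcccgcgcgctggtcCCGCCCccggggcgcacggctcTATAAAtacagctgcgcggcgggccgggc

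The 4 promoters share few of these letters. The window searched was 250 bases before to 50 after the start, and all matches in the ID genes fell before the start. GGCGCC was in none of the 4 windows, against 19.2% of 35116 RefSeq promoter windows of the same length. The SMAD4 box was present once in ID3, beginning 147 bases before the start, and once in ID4, at 205 bases (45.3% of all windows hold it). In ID3 it overlaps the only match to the TGACG core, at 150 bases, which 24.55% of windows hold. The GC box had 6 matches in ID4, 2 in ID1, 2 in ID2 and 0 in ID3, and 44.95% of windows hold at least 1. CCAAT was found once in ID1, once in ID4 and 3 times in ID2 (34.6% of windows). TATAAA was found in ID4 at 29 bases and in ID1 at 31 bases before the start, where it overlaps a match on the other strand (11.5% of windows). Thus none of these motifs was present in all of ID1, ID3 and ID4. A match is a run of letters and not a known binding site, and elements further from the start lie outside these windows.

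On the receptor side, BMPR2 was slightly higher in the miR-31 array. BMPR2 (Entrez 659, chromosome 2, bases 202376327 to 202567749) is the type II receptor that binds BMP ligands and activates the type I receptor. Its brightest probe set, 225144_at, had 1680 in the miR-31 array and 1380 in the control array, a log2 ratio of 0.28. The next, 231873_at, had 906.4 in the miR-31 array and 747.0 in the control array (0.27). All 5 compared probe sets were above 0, between 0.10 and 0.28, so they stayed below the noise SD and far from 2-fold. Centred on the poly-A controls the ratio of BMPR2 was -0.27, so its direction depends on the scaling. The sixth set, 1556075_at, was below the level filter, with 49.1 in the miR-31 array and 51.6 in the control array.

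The signal-carrying SMADs were close to the control. SMAD5 (Entrez 4090, chromosome 5, bases 136132845 to 136182733) had an intensity of 1961 in the miR-31 array and 2063 in the control array on 225219_at, a log2 ratio of -0.07. Its 5 probe sets lay between -0.08 and 0.18, with 3 below 0 and 2 above. SMAD1 (Entrez 4086, chromosome 4, bases 145480770 to 145559176) had 1021 in the miR-31 array and 1194 in the control array on 227798_at (-0.22). Its other compared set, 210993_s_at, had 704.0 in the miR-31 array and 615.0 in the control array (0.19). The probe sets of SMAD1 therefore disagreed in sign, and their mean was -0.02. The remaining SMAD1 set, 208015_at, was below the filter, with 45.3 in the miR-31 array and 67.4 in the control array.

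SMAD6, an inhibitory SMAD that BMP signals themselves induce, was also near the control on the 1 probe set compared. SMAD6 (Entrez 4091, chromosome 15, bases 66702236 to 66782849) had 351.7 in the miR-31 array and 325.7 in the control array on 207069_s_at, a log2 ratio of 0.11. Its sign changed in 4 of 9 alternative settings. The other 3 probe sets of SMAD6 were dim, with no intensity above 49.6 on either array. They gave ratios of 0.74, 0.44 and -1.67, which do not share a direction. BMP4 (Entrez 652, chromosome 14, bases 53949736 to 53956891), the ligand of the group, had 9.08 in the miR-31 array and 8.08 in the control array on 211518_s_at, and at that level no comparison was made.

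The remaining genes of the network were taken from lists by role. The 5 lists of ligands, receptors, SMAD regulators, inhibitors and target genes hold 73 further BMP genes, of which 46 could be compared. Of these, 3 were past 2-fold on the lower side and 1 on the higher side, and the median log2 ratio was 0.02. The lists were drawn up with earlier results of these data known. Their counts are read against the 1.58% and 3.74% of all genes given above.

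Among other ligands, 10 of 12 genes with a probe set were below the filter, and BMP8B (-0.18) and BMP6 (0.01) were the only ones compared. Of the 7 other receptors and co-receptors compared, 5 were above 0 and the median was 0.38. RGMB, a co-receptor anchored in the membrane that enhances BMP signalling, was below 0 at -1.23, and so was the type I receptor ACVR1 at -0.20. The brightest probe set of RGMB had 1673 in the miR-31 array and 3948 in the control array. All 4 RGMB probe sets were between -1.23 and -0.81. RGMA, a relative of RGMB, had 0.86, with 170.8 in the miR-31 array and 86.8 in the control array. BMPR1B, a type I receptor, had 456.0 in the miR-31 array and 259.1 in the control array (0.78), and its other compared set gave 0.90. NEO1, which encodes neogenin, the receptor for RGM proteins, had 0.59 on one probe set and 0.31 on the other. The signs of the receptor list were thus mixed, with 1 gene of the 7 past 2-fold. Its median lay between -0.72 and 0.48 over the alternative settings. The value of -0.72 came from a stricter level filter, which left 2 of the 7 genes. Over all 7 genes, centring on the poly-A controls gave -0.17.

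None of the 18 genes in the list of other SMADs and their regulators reached 2-fold, and their median was -0.05. SMURF2, a ubiquitin ligase that marks SMADs and receptors for degradation, had the largest ratio, -0.61, with 1922 in the miR-31 array and 2942 in the control array. Its 4 probe sets ran from -0.61 to 0.02. SMAD7, the other inhibitory SMAD, had -0.33 from intensities of 67.6 in the miR-31 array and 89.0 in the control array, close to the level minimum. PPM1A, a phosphatase that can remove the activating phosphates of SMADs, had -0.25, but its 5 probe sets ran from -0.41 to 0.64. MAP3K7, the kinase TAK1 that carries SMAD-independent BMP signals, had 0.25, and its 4 probe sets ran from -0.31 to 0.42.

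Of 17 genes for BMP inhibitors with a probe set, 9 were below the filter. The 8 compared had a median of 0.16, with 1 gene past 2-fold in each direction. NBL1, also called DAN, which binds BMP ligands, had 27.8 in the miR-31 array and 156.3 in the control array (-1.98). CHRDL1, a chordin-like protein that sequesters BMP4, had 189.7 in the miR-31 array and 58.9 in the control array (1.46). Each rests on 1 probe set with one array below the level minimum, so the sizes depend on the pseudocount. FST, follistatin, which binds activins and some BMPs, had 0.71 and 0.66 on its compared probe sets. CRIM1, a membrane protein that binds BMPs, had -0.47 on the brightest of 3 probe sets, which reached -0.74.

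**Figure D3:**
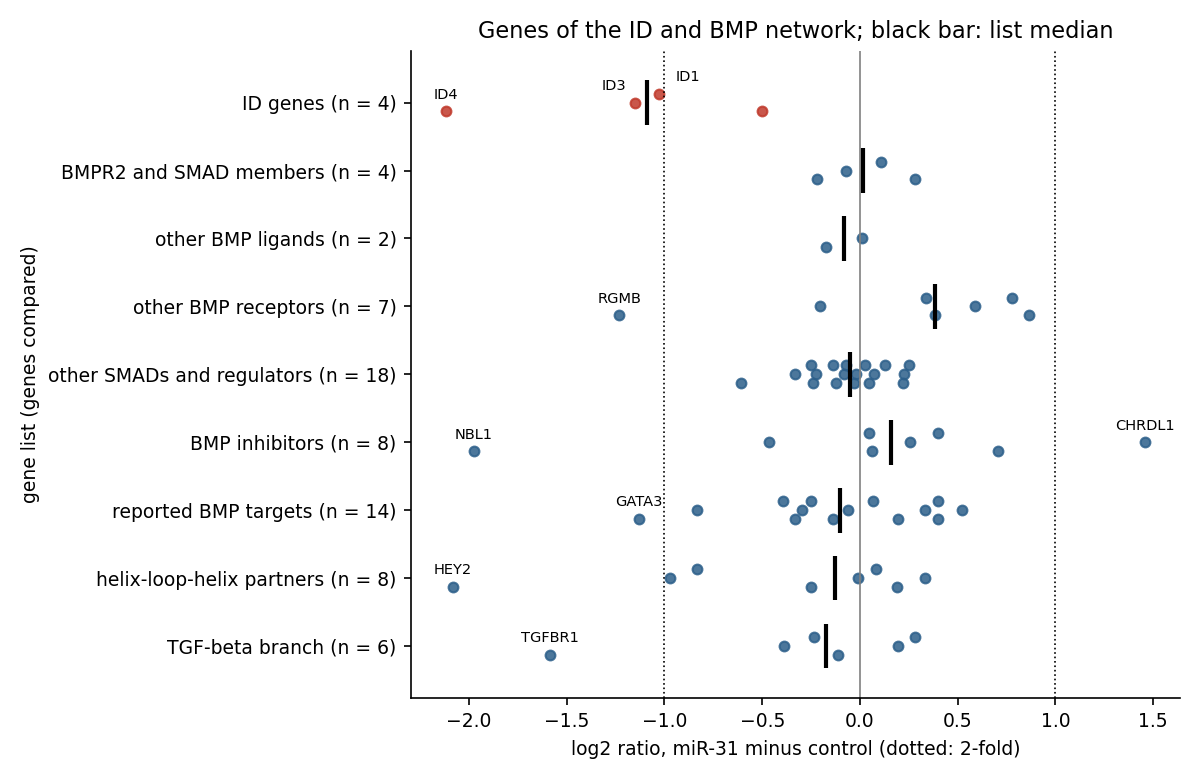
Log2 ratio (miR-31 minus control) of each compared gene by list, with the number compared; black bars are list medians, dotted lines mark 2-fold, and genes past it are named. The ID genes have a median of -1.09, and the plotted BMP, partner and TGF-beta lists have medians between -0.17 and 0.38.

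Other genes reported as BMP targets had mixed signs. Of 14 compared, 8 were below 0 and 6 above, 1 was past 2-fold on the lower side and 0 on the higher side, and the median was -0.10. GATA3, a zinc-finger transcription factor, had 1392 in the miR-31 array and 3067 in the control array (-1.13), and its 3 probe sets lay between -1.48 and -1.13. HEY1, a repressor downstream of both Notch and BMP, had 3316 in the miR-31 array and 5925 in the control array (-0.83), with -0.94 on its other probe set. RUNX2, a transcription factor of bone formation, was above 0 on all 3 compared probe sets, at 0.52 on the brightest and up to 1.93. BAMBI, a decoy receptor that BMP and TGF-beta induce, had 0.40.

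The transcription factors with which ID proteins pair, or whose family they oppose, had mixed signs. Of 8 compared, 5 were below 0 and 3 above, 1 was at least 2-fold lower, and the median was -0.13. Those above 0 were the E proteins TCF3, TCF4 and TCF12. Those below 0 were HEY2, HES5, HEY1, HES1 (-0.25) and TWIST1 (-0.01). This split was seen in the values and was not tested. It was not clean, since TWIST1 was near 0 and the probe sets of TCF3 differed in sign. HEY2, a relative of HEY1, had 48.4 in the miR-31 array and 257.1 in the control array (-2.08), and -0.81 on its other probe set. Its miR-31 signal was below the level minimum, so it passed the filter through the control array. The number of partners at least 2-fold lower was 0 with a stricter filter, 0 when probe sets ending in _s_at or _x_at were left out, and 3 when centred on either set of spike-in controls. HES5, a Notch-induced repressor, had 76.4 in the miR-31 array and 164.9 in the control array (-0.97). The E protein TCF3, a direct partner of ID proteins, had 2703 in the miR-31 array and 2144 in the control array (0.33), but its 9 probe sets ran from -0.38 to 0.43. TCF4 had 0.19 and TCF12 had 0.08 on the brightest probe set, both below the noise SD of 0.334. Their other compared probe sets were also above 0, up to 0.73 for TCF4 and 0.67 for TCF12.

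The sister branch of the superfamily, through TGF-beta receptors, SMAD2 and SMAD3, was set beside these genes because ID1 and ID3 are also reported to respond to TGF-beta. Of 6 genes compared 1 was at least 2-fold lower, and the median was -0.17. TGFBR1, the type I receptor for TGF-beta, had 1538 in the miR-31 array and 4642 in the control array (-1.58), and -1.37 on its other compared probe set. SMAD3 had -0.39 on the brightest of 4 probe sets, which ran up to 0.59, and SMAD2 had -0.23. In both branches, then, the SMADs that carry the signal stayed within 2-fold.

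As a gauge of RNA integrity, the signal of 3' probe sets over 5' probe sets was 1.01 in the miR-31 array and 0.95 in the control array for GAPDH, and 2.17 in the miR-31 array and 2.39 in the control array for ACTB. Of 12 astroglial and glioma markers 9 passed the filter and 0 reached 2-fold. Of these 9 markers, 5 were below 0 and 4 above, with a median log2 ratio of -0.22. GFAP, the astrocyte filament protein, had a log2 ratio of 0.85 on its brightest probe set and 1.03 on its other compared set. NES, the neural precursor filament nestin, had -0.91 on the brightest set, while its dimmer set had 0.03. ALDH1L1 had 0.75, SOX2 0.39 and VIM 0.19. SLC1A3 had -0.22, CD44 -0.24, FABP7 -0.52 and SOX9 -0.56. AQP4, S100B and SLC1A2, further astrocyte markers, did not pass the filter. Of 7 microglia, macrophage and lymphoid markers with a probe set 2 passed, and the summed intensity of these 2 was 162.3 in the miR-31 array and 152.2 in the control array. Of 8 neuron markers 5 were compared, 3 above 0 and 2 below, with a median of 0.30. SYT1, a synaptic vesicle protein, came closest to 2-fold, with 704.6 in the miR-31 array and 344.6 in the control array, while SNAP25, a protein of vesicle fusion, had -0.60. Neuron markers summed to 15993 in the miR-31 array and 15902 in the control array. TUBB3, at -0.05, made up 13682 of this in the miR-31 array and 14211 in the control array. Of 6 fibroblast and pericyte markers 3 were compared, with a median of 0.16, and the collagen genes differed in sign, with COL1A2 at 0.77 and COL1A1 at -0.62. The 3 compared summed to 22193 in the miR-31 array and 14079 in the control array. COL1A2 made up 21028 of this in the miR-31 array and 12349 in the control array. Of 5 endothelial markers 2 were compared, KDR at -0.90 and PECAM1 at 0.03, with a median of -0.44. Of 5 epithelial markers 2 were compared, KRT18 at -1.01 and KRT8 at 0.27, with a median of -0.37. Summed over compared genes, endothelial markers had 404.7 in the miR-31 array and 660.4 in the control array. Epithelial markers summed to 3133 in the miR-31 array and 6109 in the control array, of which KRT18 made up 2938 in the miR-31 array and 5950 in the control array. The part of all these markers in the ID result was not tested.

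The direction of the 4 ID genes was the same under every scaling, pseudocount, filter and probe set rule in which they could be computed. Their ratios were the lowest when centred on the poly-A controls, whose own 24 probe sets had a median log2 ratio of 0.55. That centring gave -2.67 for ID4, -1.70 for ID3, -1.58 for ID1 and -1.05 for ID2. It also placed BMPR2 and the 3 SMAD genes below 0, with a median of -0.53.

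**Figure D4:**
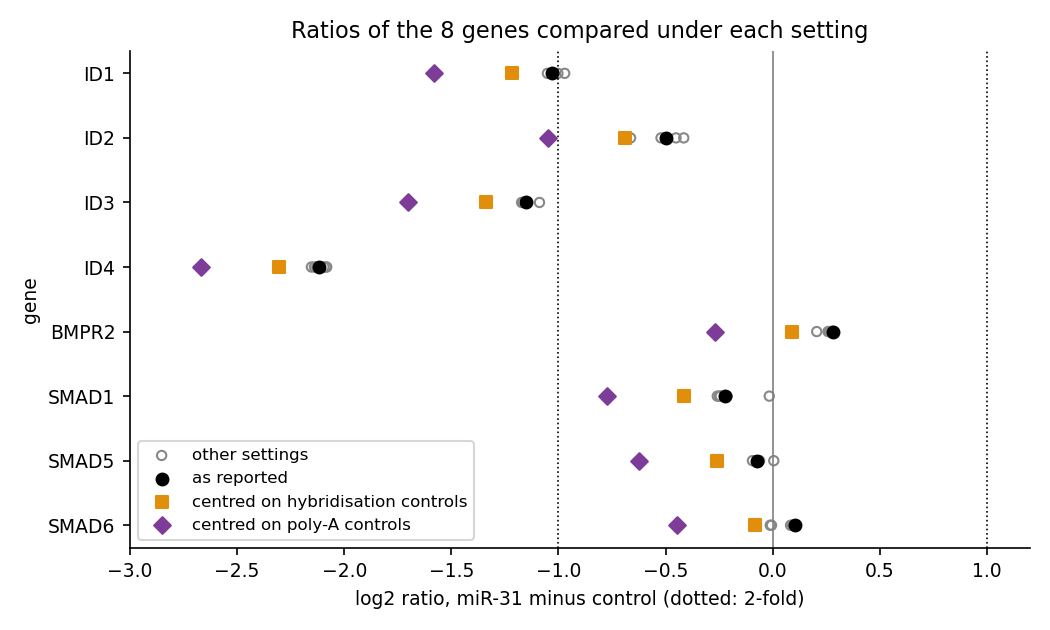
Log2 ratio (miR-31 minus control) of the 8 compared genes under each processing setting; filled circles are the reported values, squares and diamonds the ratios centred on spike-in controls, and open circles the other settings. The ID genes lie left of 0 throughout, ID1 lies at the 2-fold line, and BMPR2, SMAD5 and SMAD6 have settings on both sides of 0.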

How the data were processed

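Gene expression was measured in U251 cells on 2 Affymetrix HG-U133 Plus 2.0 arrays, 1 of miR-31-transfected and 1 of control-transfected cells. The authors deposited 1 linear intensity for each of 54675 probe sets and array; which software made these values was not stated in the labels. With 2% of probe sets trimmed at each end, both arrays averaged 500.1. Genes were named from the platform annotation, and 41091 probe sets with 1 symbol, control probe sets excluded, were used. Sequences and gene positions are from RefSeq (GRCh38.p14), and all 9 member genes with probe sets matched by Entrez identifier.

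Values were taken as log2(intensity + 16), filtered at the median level of all probe sets, and called at 2-fold. From each further list, up to 4 compared genes with the largest absolute ratio were named. The members and lists were chosen with earlier results of these data known. The calculation was tested on simulated data. That test planted no shift as small as the ratios of ID1 and ID3, and it did not model differences between cultures. The number of arrays limits the precision: no replicates exist and no p-value was computed. Alternatives were median centring, quantile normalization, a lowess correction for level (span 0.3), centring on hybridisation or poly-A controls, pseudocounts of 1 and 64, no filter, a filter at the 75th percentile of level, the mean of probe sets, leaving out _s_at and _x_at probe sets, and a threshold of 1.5-fold. Calculations ran in Python 3.11.15 with pandas 2.3.3, numpy 2.4.6, statsmodels 0.14.6 and scipy 1.17.1, and plots were drawn with matplotlib 3.10.9.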

Additional observations from a re-analysis of the deposited data

How the results depend on the processing

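No paired analysis was possible because only 1 array represents each condition, and neither could be left out. The number of members at least 2-fold lower, 3, was 2 after removal of a level trend, 4 when centred on the poly-A controls, and 1 without _s_at and _x_at probe sets, which removes ID1, ID2, ID3 and SMAD6 and leaves 4 members; no setting called a member higher. The ID median of -1.09 became -1.64 centred on the poly-A controls and -2.12 without those probe sets, where ID4 alone stands for the family. The median of BMPR2 and the SMAD genes became -0.53 centred on the poly-A controls, and was below 0 in 7 of 11 settings, so it has no settled sign. Over all genes, 186 were at least 2-fold lower; this was 367 centred on hybridisation controls, 1279 on poly-A controls, 1002 without a filter, 100 with the stricter filter and 793 at 1.5-fold. The 441 genes at least 2-fold higher became 266, 124, 1184, 151 and 1376 under the same settings, and 283 with a pseudocount of 64. The filters and the threshold set, by their construction, the number of genes able to pass. With the stricter filter no gene was left in the list of other ligands. Without detection calls, signals near the level minimum cannot be separated from background.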

Other observations

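The genes listed next were nearest to an ID gene in their levels on both arrays. Distance was Euclidean over 2 arrays on the log2 scale. Brightness differs between probe sets for technical reasons, and 2 arrays give little to compare. Closeness in both levels fixes a similar log2 ratio in advance, so the ratios are not a separate result. For ID4 they were CRYAB (a small heat shock protein, distance 0.30), SORBS2 (an adaptor protein, 0.39) and F2R (the thrombin receptor, 0.42), with log2 ratios of -1.72, -1.56 and -1.99. For ID1 they were CCN1 (a matricellular protein, 0.14), AKAP12 (a kinase-anchoring scaffold, 0.17) and DKK3 (a secreted protein, 0.22), with log2 ratios of -0.83, -1.11 and -0.76. For ID3 they were CCN2 (a matricellular protein, 0.18), RGS4 (a regulator of G protein signalling, 0.22) and FABP7 (a fatty acid binding protein of radial glia, 0.46), with log2 ratios of -0.89, -0.85 and -0.52.

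NOG, which encodes the BMP antagonist noggin, had 6.02 in the miR-31 array and 86.5 in the control array. Its mean level was below the filter, so it was not compared, and it was looked up after other values were seen. Inhibitors below the filter did not share a direction: BMPER had 38.6 in the miR-31 array and 1.15 in the control array.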
